A study of Mus musculus with 15 samples.

Results

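Skeletal muscle genes were followed through tumours grown from LLC1, a line of mouse Lewis lung carcinoma. The set is 10 genes taken by name out of the 53465 in the deposited count table: Acta1, Ckm, Myh1, Myh2, Myh4, Myh7, Tnnt3, Tnnt1, Mylpf and Mb. They were chosen by their measured counts, Acta1 having stood high in WT ICI 2 and WT RI 3 in earlier results, so their levels in single libraries are a description and carry no test.

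Muscle contracts when myosin motors of the thick filament pull on actin of the thin filament, with troponin as the calcium switch between them. Fast and slow fibres use different gene copies of these proteins, so that the heavy chain genes Myh4, Myh1 and Myh2 mark fast fibre types and Myh7 the slow type. Transcripts of the mature sarcomere are not part of the usual programme of a lung carcinoma cell.

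Libraries came from tumours of LLC1-sgLkb1, labelled LKB1 knockdown (KD), or of LLC1 with the genotype label WT. KD RT tumours had radiation alone, KD RI and WT RI tumours radiation with an immune checkpoint inhibitor, and KD ICI and WT ICI tumours the inhibitor alone, with 3 libraries in each of the 5 groups. No group is labelled untreated and no WT group had radiation alone, and the labels give no age, sex, injection site or clone. The sample descriptions carry namings that no source used here explains. JIAN stands in all WT RI libraries, WT ICI 2, KD ICI 1 and KD RI 2, TUI in WT ICI 1, WT ICI 3 and KD ICI 2, and SG793 in KD ICI 3, KD RI 1 and KD RI 3. KD ICI 1 and KD ICI 2 share H80, and the description of KD ICI 3 holds CON, a tag found in no other, although its treatment label is ICI, which was kept.

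Counts exist for 12 libraries of 17289313 to 23471917 counts each, and FPKM (fragments per kilobase, scaled to depth) alone for KD RT in a separate table. Stk11, the guide's target, stood at 111 to 152 CPM (depth-scaled counts, with TMM factors) in the 6 KD libraries, against 140 to 171 CPM in the 6 WT libraries. Krt8, an epithelial keratin, stood at 441 to 755 CPM and Vim, an intermediate filament of mesenchymal and many cultured cells, at 2346 to 6628 CPM. Libraries of these tumours mix host and carcinoma RNA, and more muscle cells cannot be told apart from more RNA per muscle cell.

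Acta1, the actin of the adult skeletal thin filament (chromosome 8, 123891769 to 123894751 on GRCm38), had the highest FPKM of the 10 genes in WT ICI 2, WT RI 3 and KD RT 4. It stood at 1.99, 39.2 and 37.2 CPM in KD RI 1 to 3, against 0.26, 0.26 and 310 CPM in WT RI 1 to 3. In KD ICI 1 to 3 it stood at 0.75, 1.54 and 12.5 CPM, against 7.37, 340 and 6.79 CPM in WT ICI 1 to 3. One WT library of each treatment thus holds almost the whole signal of its group, and the ranges of KD and WT overlap under both treatments. WT RI 3 lay 1172 times above the next WT RI library, which had 6 Acta1 counts. WT ICI 2 lay 46.2 times above the next WT ICI library. KD RI had a pair of like libraries at the top, 1.06 times apart, and in KD ICI the highest library was 8.15 times above the second. Group means were 26.1 ± 20.9 CPM in KD RI, 104 ± 179 CPM in WT RI, 4.94 ± 6.59 CPM in KD ICI and 118 ± 192 CPM in WT ICI (SD, n = 3 each). In both WT groups and in KD ICI the SD is larger than the mean.

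Per length Acta1 reached 237 FPKM in WT ICI 2, where it ranked 118th among 24181 genes above 0, and 206 FPKM in WT RI 3, where it ranked 145th of 23528. In WT RI 1 and WT RI 2 it ranked 17111th and 17396th. Together the 10 genes took 0.116% of all counts in WT ICI 2 and 0.0864% in WT RI 3. KD RI 2 and KD RI 3 followed with 0.00856% and 0.00879%, and the lowest shares were 0.000303% in WT RI 2 and 0.000283% in KD ICI 1. Even at its highest the muscle signal is a small part of a library.

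**Figure D1:**
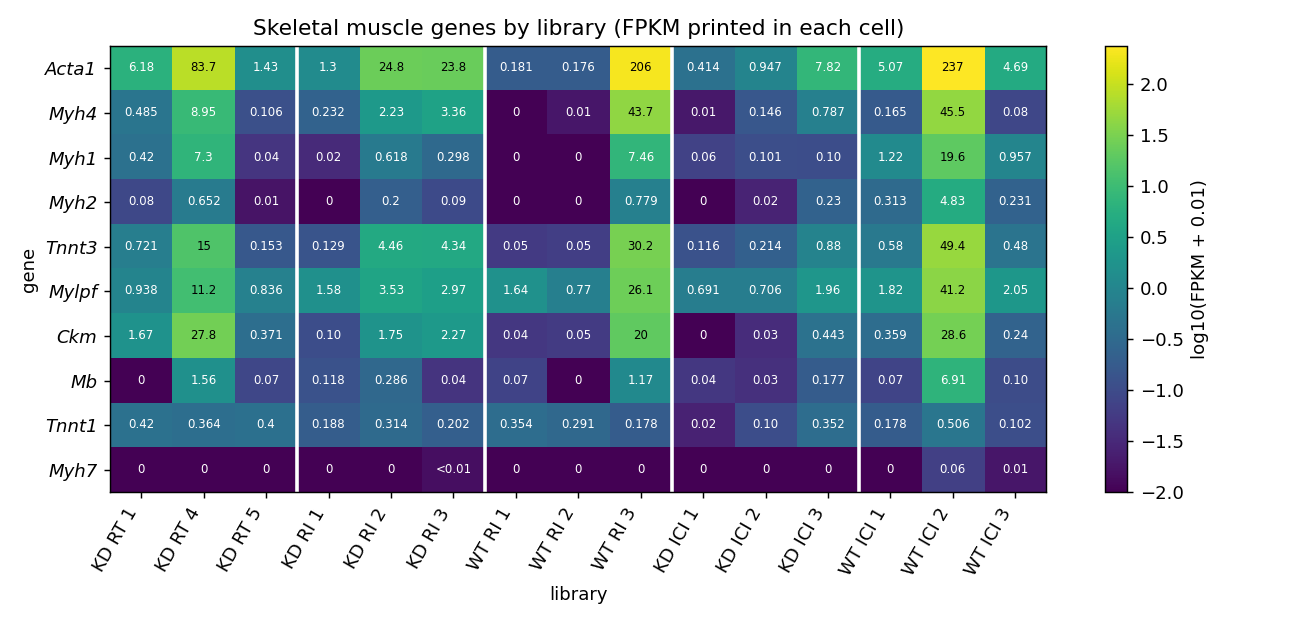
FPKM of the 10 genes (rows, printed in each cell and coloured as log10 of FPKM plus 0.01) in the 15 libraries (columns, white lines between groups), with KD RT from its own table. WT ICI 2 and WT RI 3 hold the highest Acta1 values, 237 and 206 FPKM, followed by KD RT 4 with 83.7 FPKM, while Tnnt1 stays at or under 0.506 FPKM and Myh7 at or near 0.

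The fast heavy chain genes followed Acta1 to unlike degrees, with r on log2 CPM of 0.968 for Myh4, 0.910 for Myh2 and 0.908 for Myh1. Without WT ICI 2 and WT RI 3 these were 0.926, 0.842 and 0.794. The 3 genes lie side by side on chromosome 11, Myh2 from 67171027 to 67197517, Myh1 from 67200052 to 67224575 and Myh4 from 67238029 to 67260446. They are near-identical copies, so reads may be split or lost between them, and the counter used is not given. Myh4, the heavy chain of the fastest (type 2B) fibres, stood at 1.496, 14.9 and 22.1 CPM in KD RI 1 to 3, against 0, 0.052 and 278 CPM in WT RI 1 to 3. It stood at 0.068, 1.00 and 5.30 CPM in KD ICI 1 to 3, against 1.01, 275 and 0.47 CPM in WT ICI 1 to 3. WT RI 3 and WT ICI 2 were nearly level in Myh4, and WT RI 1 and WT RI 2 held 0 and 1 count.

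Myh1, the heavy chain of type 2X fibres, was the one gene of the 10 with groups that did not overlap in KD against WT under ICI, where 41.7% of all genes tested do not overlap. It stood at 0.54, 0.77 and 0.73 CPM in KD ICI 1 to 3, against 8.33, 132 and 6.49 CPM in WT ICI 1 to 3. All KD ICI libraries lay below all WT ICI libraries, a separation in this direction that 21.7% of all genes tested also show. In the other 3 comparisons of groups 0 of the 10 were separate, against 45.1% of all genes in KD against WT under RI, 26.5% in RI against ICI in WT and 13.1% in RI against ICI in KD. Under RI it stood at 0.17, 4.57 and 2.18 CPM in KD RI 1 to 3, against 0, 0 and 52.8 CPM in WT RI 1 to 3, which overlap. The limit of 3 counts that a count of 0 allows is 0.132 CPM in WT RI 1 and 0.156 CPM in WT RI 2. Myh2, of the fast oxidative type 2A fibres, was the lowest of the 3 fast chains in WT ICI 2, WT RI 3 and KD RT 4, at 4.83, 0.779 and 0.652 FPKM. It was not the lowest in all libraries. In WT ICI 1 and WT ICI 3 Myh2 had 49 and 39 counts, above the 22 and 11 of Myh4. In KD ICI 3 its 35 counts lay above the 14 of Myh1.

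The 250 bases before the start are shown for 3 members of the set, for comparison: Acta1 and Myh4, the thin and thick filament genes with most counts, and Myh2, a neighbour of Myh4 on its chromosome. They are from RefSeq on GRCm38.p6, written 5′ to 3′ on the gene's strand. The windows are chr8:123894776-123895025 on the minus strand for Acta1, chr11:67237562-67237811 on the plus strand for Myh4 and chr11:67170777-67171026 on the plus strand for Myh2. Capitals mark the E-box CANNTG, which muscle regulatory factors of the MyoD family bind, the CArG box of serum response factor, and the MEF2 box, each searched on both strands with no overlap among them here.
Acta1: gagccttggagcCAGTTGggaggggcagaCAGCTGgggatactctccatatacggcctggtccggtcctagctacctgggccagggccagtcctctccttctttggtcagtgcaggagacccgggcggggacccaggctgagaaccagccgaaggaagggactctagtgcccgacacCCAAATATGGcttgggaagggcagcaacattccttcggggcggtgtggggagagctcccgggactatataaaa
Myh4: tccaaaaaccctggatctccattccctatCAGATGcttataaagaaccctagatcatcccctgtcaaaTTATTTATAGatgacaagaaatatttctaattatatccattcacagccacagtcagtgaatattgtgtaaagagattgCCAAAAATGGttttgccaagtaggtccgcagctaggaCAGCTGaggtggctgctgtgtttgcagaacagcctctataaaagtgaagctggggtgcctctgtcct
Myh2: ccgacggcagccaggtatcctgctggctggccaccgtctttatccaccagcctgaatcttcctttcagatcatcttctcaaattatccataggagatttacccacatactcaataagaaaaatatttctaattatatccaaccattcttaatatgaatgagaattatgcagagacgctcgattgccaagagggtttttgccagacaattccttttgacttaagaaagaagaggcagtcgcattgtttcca
The Acta1 window held 2 E-boxes and 1 CArG box. The Myh4 window held 2 E-boxes, 1 CArG box and 1 MEF2 box, and the Myh2 window held none of these letters. Among windows not shown, that of Myh1, which lies between Myh2 and Myh4, held 1 MEF2 box. Those of Ckm, Mylpf and the low Tnnt1 held 1 E-box each, and those of Myh7 and Mb also held E-boxes. Over 32851 windows of the same length 66.2% held an E-box, 1.47% a CArG box and 2.92% a MEF2 box. RefSeq windows were found for 9 of the 10 genes, and the search is a description of letters only.

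Myh7 (chromosome 14, 54970684 to 54994626), the heavy chain of slow fibres and of the heart, was close to absent where the fast chains were high. It had 1 count in KD RI 3, 14 in WT ICI 2 and 2 in WT ICI 3 and 0 in the other 9 libraries, and was listed at 0 in the 3 KD RT libraries. Of the counts of the 4 heavy chain genes Myh7 made up 0.126% in WT ICI 2 (95% exact Clopper-Pearson interval 0.0691% to 0.212%) and 0 of 7067 in WT RI 3, where the interval reaches 0.0522%. Fast chains thus made up nearly all heavy chain counts in both libraries. Counting intervals cover counting error only.

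Within the fast chains the mix differed between libraries. Myh4 took 88.4% of heavy chain counts in KD RI 3 (85.1% to 91.1%), 82.6% in WT RI 3 (81.7% to 83.5%), 70.8% in KD RI 2 (66.1% to 75.2%) and 67.5% in KD ICI 3 (59.5% to 74.9%). It took 62.3% in WT ICI 2 (61.3% to 63.2%). In WT ICI 1 and WT ICI 3 Myh4 took 8.70% (5.53% to 12.9%) and 5.37% (2.71% to 9.40%), and Myh1 71.9% (66.0% to 77.4%) and 74.6% (68.1% to 80.4%). Those libraries therefore carry a Myh1-led mix, outside the counting intervals of the Myh4-led ones. Both are named TUI, and the third TUI library, KD ICI 2, had 22 Myh4 and 17 Myh1 of 42 counts, a Myh4 share of 52.4% (36.4% to 68.0%). WT ICI 2, of the same group, is named JIAN, and in WT ICI naming and mix moved together, whose part in the mix was not tested. KD ICI 1, also named JIAN, had 8 Myh1 counts of 9.

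**Figure D2:**
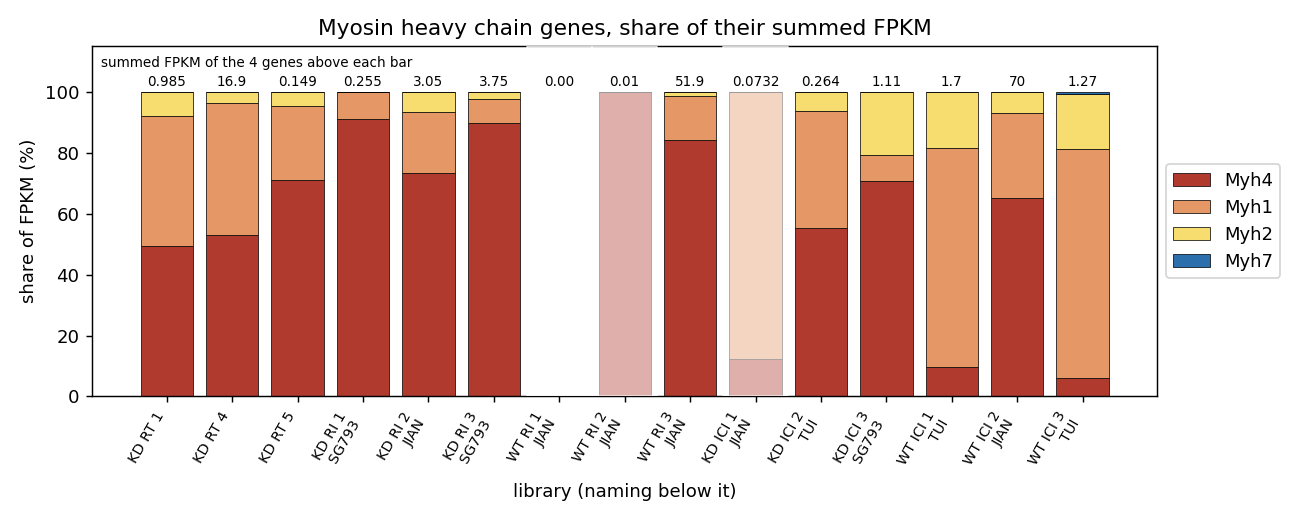
Share (%) of the summed FPKM of Myh4, Myh1, Myh2 and Myh7 in each of 15 libraries, with the summed FPKM above each bar and the naming below it. Pale bars rest on 9 or fewer counts and WT RI 1 has none; WT ICI 1 and WT ICI 3 are the Myh1-led bars with more counts than that.

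Tnnt3, the fast skeletal troponin T that ties the troponin complex to tropomyosin (chromosome 7, 142498836 to 142516009), followed Acta1 closely. It stood at 0.39, 13.8 and 13.2 CPM in KD RI 1 to 3, against 0.13, 0.16 and 89.1 CPM in WT RI 1 to 3. It stood at 0.41, 0.68 and 2.76 CPM in KD ICI 1 to 3, against 1.65, 139 and 1.36 CPM in WT ICI 1 to 3. The order of libraries is close to that of Acta1, with a Pearson r of 0.985 between them on log2 CPM over 12 libraries, which share depth and TMM factors with each other.

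Tnnt1, the slow skeletal troponin T (chromosome 7, 4504570 to 4516382), did not follow. It stood at 0.66, 1.14 and 0.73 CPM in KD RI 1 to 3, against 1.19, 0.99 and 0.62 CPM in WT RI 1 to 3. It stood at 0.068, 0.36 and 1.30 CPM in KD ICI 1 to 3, against 0.60, 1.68 and 0.34 CPM in WT ICI 1 to 3. WT ICI 2, highest of 12 in Acta1, was also the highest in Tnnt1. WT RI 3, second highest of 12 in Acta1, was the lowest WT RI library in Tnnt1. Its correlation with Acta1 was 0.340, and its counts ran from 1 to 42, near the lower limit of the measurement. Of the summed Tnnt1 and Tnnt3 counts Tnnt1 made up 27 of 30 in WT RI 1, 86.4% in WT RI 2 (65.1% to 97.1%) and 0.689% in WT RI 3 (0.368% to 1.18%). In WT ICI 2 it made up 1.19% (0.860% to 1.61%). The slow troponin T was thus most of a small total in WT RI 1 and WT RI 2, but 1 of 7 counts in KD ICI 1, where the set was also low.

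Mylpf, the phosphorylatable light chain of fast myosin (chromosome 7, 127208890 to 127214298), kept a low level in the libraries where Acta1 was near 0. It stood at 2.77, 6.39 and 5.30 CPM in KD RI 1 to 3, against 2.74, 1.30 and 45.1 CPM in WT RI 1 to 3. It stood at 1.43, 1.31 and 3.59 CPM in KD ICI 1 to 3, against 3.02, 67.8 and 3.39 CPM in WT ICI 1 to 3. WT RI 1 held 62 Mylpf counts beside 6 of Acta1, while WT RI 3 held 948 beside 6522. No other annotated gene overlaps it in GENCODE M21, and what sets this level was not tested. Pgam2 and Pygm, the muscle glycogen phosphorylase, likewise kept 55 and 42 counts in WT RI 1.

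**Figure D3:**
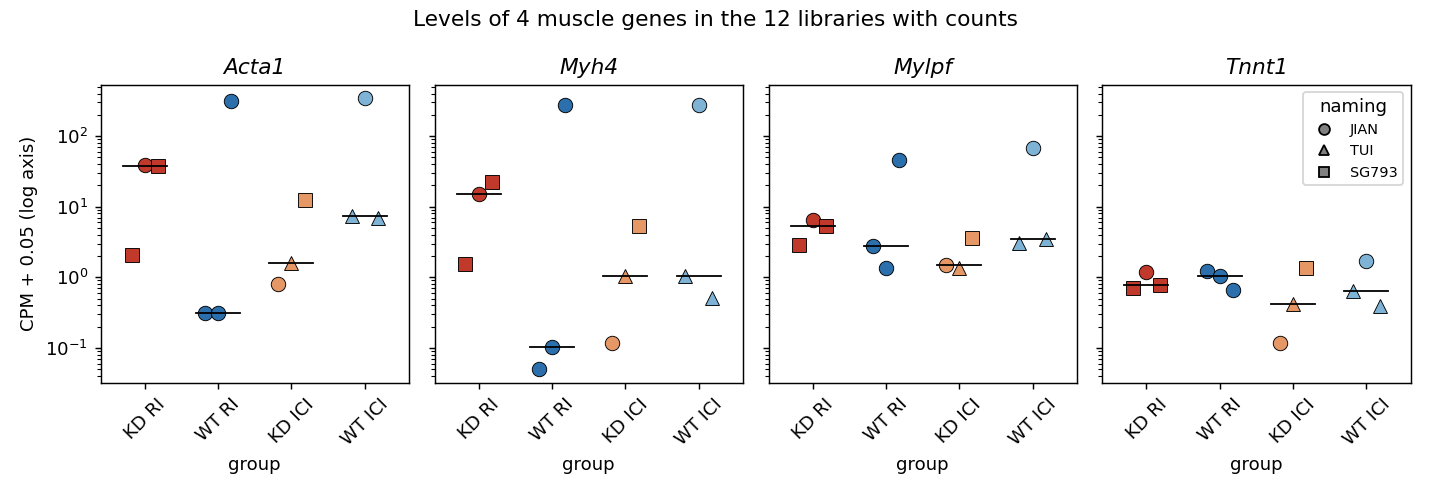
CPM plus 0.05 on a log axis for Acta1, Myh4, Mylpf and Tnnt1 in the 12 libraries with counts, by group, with a line at each median and the marker shape giving the naming. WT RI 3 and WT ICI 2 stand at the top for the first 3 genes, and Tnnt1 lies at or under 1.68 CPM throughout.

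The energy genes split by size. Ckm, the muscle creatine kinase that buffers ATP in the sarcomere (chromosome 7, 19404776 to 19422841), stood at 0.33, 6.08 and 7.79 CPM in KD RI 1 to 3, against 0.13, 0.16 and 66.4 CPM in WT RI 1 to 3. It stood at 0, 0.090 and 1.56 CPM in KD ICI 1 to 3, against 1.14, 90.4 and 0.76 CPM in WT ICI 1 to 3. Mb, the oxygen store myoglobin of oxidative fibres (chromosome 15, 77015489 to 77050670), had 3, 8 and 1 counts in KD RI 1 to 3, against 2, 0 and 34 in WT RI 1 to 3. It had 1, 1 and 5 counts in KD ICI 1 to 3, against 2, 229 and 3 in WT ICI 1 to 3. Ckm stays close to the library order of Acta1, while Mb is clear of a few counts in WT ICI 2 and WT RI 3 alone. By FPKM Mb was 5.93 times as high in WT ICI 2 as in WT RI 3, against a 1.15-fold ratio for Acta1. Apol6, on the other strand, overlaps Mb, with 76 counts in WT ICI 2 and 179 in WT RI 3, and without strand the reads of both cannot be told apart.

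In KD RT the same split between libraries appeared, in FPKM from the other table. Acta1 was 6.18, 83.7 and 1.43 FPKM in KD RT 1, 4 and 5, ranking 5993rd, 501st and 9917th. Ckm was 1.67, 27.8 and 0.371 FPKM, Tnnt3 0.721, 14.97 and 0.153 FPKM, and Mylpf 0.938, 11.2 and 0.836 FPKM. KD RT 4 was the high library in each, and Tnnt1 was level at 0.420, 0.364 and 0.400 FPKM. The heavy chains in KD RT 4 were 8.95 FPKM for Myh4 and 7.30 for Myh1, a Myh4 share of 53.0%. No test against the other groups was made, since the tables appear to have been counted differently. The ratio of Acta1 to Ckm FPKM was 3.01 to 3.85 in KD RT, but 8.27 to 19.5 in the 7 other libraries with at least 18 Ckm counts.

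The set thus stood high in 1 library of 3 in KD RT, WT RI and WT ICI. By Acta1 the JIAN libraries ran from 0.26 to 340 CPM (n = 6), the TUI libraries from 1.54 to 7.37 CPM (n = 3) and the SG793 libraries from 1.99 to 37.2 CPM (n = 3). The 3 WT RI libraries, which share JIAN, span the lowest and nearly the highest level, so the spread is as large within that naming. For 7 of the 8 genes that passed the filter on low counts WT ICI 2 and WT RI 3 were the highest libraries, as they were for 2.79% of all genes, but this is the pattern for which the genes were picked.

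Fitted over all 12 libraries, no comparison of groups moved any of these genes past the threshold (edgeR's quasi-likelihood test, Benjamini-Hochberg adjusted p of 0.05 over 16617 genes). Myh7 and Mb did not pass the filter, so 8 of the 10 were tested. The labels do not call the samples separate animals, so the spread behind each p-value may be technical. The comparisons share libraries with each other, and every adjusted p given for them is from this edgeR test. DESeq2 gave an adjusted p to 1 of the 10 genes in each comparison and called 0.

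For KD against WT under ICI 0 of 8 passed, where 31% of all genes did, and 1 had an unadjusted p under 0.05, Myh1, where 42.5% of all genes did. The log2 fold changes were all below 0, from -6.14 to -0.56, with a median of -4.87 against 0.0019 for all genes tested. Acta1 changed by -4.56 ± 2.68 (SE, adjusted p = 0.229) and Myh1 by -6.14 ± 2.48 (adjusted p = 0.0923). Tnnt1 changed by -0.56 ± 0.73 (adjusted p = 0.584). Without WT RI 3, a library outside this comparison that shares its estimate of spread, Myh1 (-6.17, adjusted p = 0.0193) and Mylpf (-3.58, adjusted p = 0.0428) fell. In that fit 29.4% of all genes passed in either direction. Without WT ICI 2 the median was -0.59 and 0 passed.

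For KD against WT under RI 0 of 8 passed, where 21.2% of all genes did, and 0 had an unadjusted p under 0.05, where 33.5% of all genes did. The median was -1.87 against 0.024 for all genes, and Acta1 changed by -1.98 ± 2.33 (adjusted p = 0.610). This direction rests on WT RI 3. Without it the median was 6.24 and Acta1 changed by 6.58 (adjusted p = 0.176), still 0 past the threshold. Leaving out WT RI 3 and WT ICI 2 together, which were picked for their high muscle levels, 4 genes rose (9.18% of all genes rose in the fit of 12 libraries, and 15.7% passed in either direction without those libraries), Myh4 (8.71, adjusted p = 0.0203), Myh1 (8.53, adjusted p = 0.0178), Acta1 (6.57, adjusted p = 0.0261) and Tnnt3 (5.90, adjusted p = 0.0256). Those values describe the 10 libraries left and support no difference, since the choice of libraries used the outcome.

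For RI against ICI in WT 0 of 8 passed, where 0.283% of all genes did, with a median of -0.53 against 0.00065 for all genes. Acta1 changed by -0.19 ± 2.22 (adjusted p = 0.991) and by 3.86 (adjusted p = 0.740) without WT ICI 2. The median was 3.10 without WT ICI 2 and -8.53 without WT RI 3. For RI against ICI in KD 0 of 8 passed, where 0.0843% of all genes did. All 8 fold changes were above 0, with a median of 2.06 against -0.024 for all genes, and Acta1 changed by 2.38 ± 2.54 (adjusted p = 0.688). The median was 0.93 without KD RI 2 and 3.14 without KD ICI 3, where Acta1 changed by 4.44 (adjusted p = 0.476). The difference of the RI effects, KD minus WT, passed for 0 of 8 genes, where 0.367% of all genes passed, with a median of 2.73 against -0.016. That median was -1.29 without WT ICI 2 and 11.1 without WT RI 3. In the last 3 comparisons 0 of the 8 had an unadjusted p under 0.05, where 11.1%, 14.8% and 13.5% of all genes did.

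**Figure D4:**
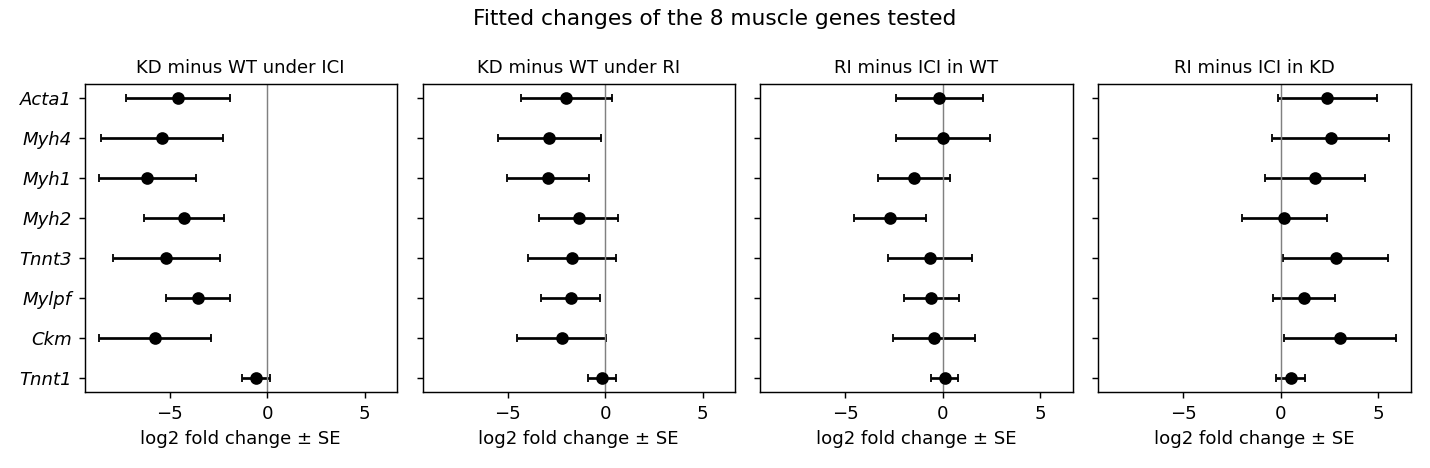
Log2 fold change with its standard error for the 8 genes tested, in 4 comparisons of 3 libraries against 3. No point passed an adjusted p of 0.05, and the errors of the fast genes are 1.42 or more.

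Further muscle genes, 71 in 6 lists, showed how far the signal reaches through the fibre. By the mean of the 8 genes tested, on log2 CPM over 12 libraries, the most alike genes outside the set, among named genes with a mean of at least 1 CPM, were Myot, Tcap, Nrap, Fhl1, Tnni2, Myl1, Ryr1 and Pdlim3, with r from 0.977 to 0.989, and from 0.941 to 0.974 without WT ICI 2 and WT RI 3. Myot, Tcap, Nrap and Pdlim3 belong to the Z-disc or the fibre's ends, Tnni2 and Myl1 are fast troponin I and a fast light chain, and Ryr1 is the calcium release channel. With no such limit 52 of all 16617 genes had r over 0.9, the set's own included. Libraries that share depth and scaling underlie these values, which are given with no test.

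Of 13 fast fibre genes 10 passed the filter, and those 10 had WT ICI 2 and WT RI 3 as the highest libraries, where 2.79% of all genes did. The lists were chosen with earlier results of these data known, and high counts in those libraries help a gene pass the filter. Tnnc2, which did not pass, had 2 counts in WT ICI 2 and 0 in WT RI 3. Atp2a1, the calcium pump of the fast fibre's reticulum, stood at 1.16, 16.8 and 13.4 CPM in KD RI 1 to 3, against 0.13, 0.10 and 156 CPM in WT RI 1 to 3. It stood at 0.82, 0.50 and 1.87 CPM in KD ICI 1 to 3, against 1.74, 164 and 0.81 CPM in WT ICI 1 to 3. By mean FPKM it was followed by Pgam2, a muscle enzyme of glycolysis, and Actn3, the fast Z-disc actinin. Pgam2 reached 13.2 FPKM in WT ICI 2 and 11.8 FPKM in WT RI 3, and Actn3 23.5 and 18.04 FPKM. Pgam2 also stood at 5.16 and 8.15 FPKM in KD ICI 1 and KD ICI 2. Its r to the set's mean was 0.453, and -0.441 without WT ICI 2 and WT RI 3, against 0.920 and 0.746 for Actn3. Summed over the 13 fast list genes the level was 498 CPM in WT ICI 2 and 435 CPM in WT RI 3, and 7.42 to 51.4 CPM elsewhere.

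Of 4 slow fibre genes that passed the filter 2 had those libraries on top, Mybpc1 and Csrp3, where 2.79% of all genes did. Mybpc1, slow myosin binding protein C, stood at 44.8 CPM in WT ICI 2 and 14.3 CPM in WT RI 3. Csrp3, a Z-disc LIM protein, stood at 12.9 and 2.05 CPM. Tnnc1, the troponin C of slow fibres and heart, lay between 0.96 and 2.24 CPM in all 12 libraries and was highest in KD ICI 1. Summed, the 9 slow list genes gave 65.6 CPM in WT ICI 2, 19.3 CPM in WT RI 3 and 1.54 to 7.80 CPM elsewhere. The slow sum thus differs 3.39-fold between the WT libraries that are high, against 1.15-fold for the fast sum. Mybpc1 and Csrp3 make up most of the slow sum in both, so its ratio rests on few genes. Tnni1, Myl2 and Myl3 of the slow list had 14, 19 and 5 counts in WT ICI 2 and 0 each in WT RI 3.

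In the other lists, among genes that passed the filter, WT ICI 2 and WT RI 3 were highest for 13 of 15 shared sarcomere genes. They were highest for 8 of 11 genes of excitation-contraction coupling, 5 of 8 of energy metabolism and 2 of 3 myogenic and embryonic genes. Over all genes tested the share was 2.79%. In that order the lists hold 16, 12, 10 and 11 genes, and Myod1 and Myog, which did not pass, had 0 counts in WT RI 3. High counts in WT ICI 2 and WT RI 3 help a gene pass the filter, so these shares are a description. The sarcomere genes of highest mean FPKM were Tpm2, Tcap and Klhl40, and Tcap, which joins titin to the Z-disc, stood at 35.3 FPKM in WT ICI 2 and 16.3 FPKM in WT RI 3. Klhl40 was, of the 12, highest in KD ICI 1 and KD ICI 2, at 3.53 and 2.76 FPKM. The energy genes of highest mean FPKM were Eno3, Pfkm and Ak1. Eno3 lay between 28.4 and 39.6 FPKM in all 12 libraries and was highest in KD RI 1. Pfkm was highest in WT ICI 2 at 30.6 FPKM, but WT RI 3, at 21.2 FPKM, lay below KD ICI 2 at 25.7 and KD ICI 1 at 24.0 FPKM. Ak1 stood at 4.98 FPKM in WT ICI 2, 4.81 FPKM in WT RI 3 and 1.74 to 4.37 FPKM in the other 10 libraries with counts. Of the coupling genes of highest mean FPKM, Mylk2, the muscle myosin light chain kinase, stood at 4.50 FPKM in WT ICI 2, 2.90 FPKM in WT RI 3 and at most 0.745 FPKM in the other 10. Cacnb1, the calcium channel beta subunit, was, of the 12, highest in WT ICI 2 at 2.49 FPKM and lowest in WT RI 3 at 1.41 FPKM. Jph1, which ties the reticulum to the cell membrane, was highest of the 12 in WT RI 1 at 1.68 FPKM. Ttn, the giant spring of the sarcomere, stood at 145 CPM in WT ICI 2 and 95.5 CPM in WT RI 3, and at 2.65 to 18.9 CPM elsewhere. Tpm2, a tropomyosin that many cell types use, ranged only from 62.4 to 142 CPM. Myf6, the regulatory factor of mature fibres, stood at 4.35 CPM in WT ICI 2 and 1.57 CPM in WT RI 3. Myod1, the myoblast factor, had 22 counts in WT ICI 2 and 0 in the other 11 libraries. Chrna1, the muscle acetylcholine receptor subunit, stood at 0.651 FPKM in WT ICI 2 and 0.320 FPKM in WT RI 3, and embryonic Myh3 lay between 2.94 and 5.74 CPM.

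Among these lists 3 of the 51 genes tested fell in KD against WT under ICI and 0 rose, where 14.9% of all genes fell and 16.1% rose. They were Stac3 (-1.15 ± 0.30, adjusted p = 0.0123) and Jsrp1 (-3.03 ± 1.05, adjusted p = 0.0457), adaptors of excitation-contraction coupling, and Tmod4 (-2.14 ± 0.68, adjusted p = 0.0322), which caps thin filaments. The median over the 51 was -3.17. Stac3 stood at 1.70, 2.08 and 2.39 CPM in KD ICI 1 to 3, against 3.66, 5.67 and 4.45 CPM in WT ICI 1 to 3, with no overlap and r of 0.615 to the set's mean. Without WT ICI 2 it still fell, with Jsrp1 and Tmod4 lost and Tpm2 and Klhl40 rising, where 22.5% of all genes passed in either direction. Without WT RI 3 there were 13 of 51 that fell, where 29.4% of all genes passed in either direction. In the fit of 12 libraries 13 of 51 had an unadjusted p under 0.05 under ICI, where 42.5% of all genes did. In the other 4 comparisons, in the order above, 0 of 51 passed by edgeR, where 21.2%, 0.283%, 0.0843% and 0.367% of all genes did. There 2, 1, 0 and 0 of 51 had an unadjusted p under 0.05, where 33.5%, 11.1%, 14.8% and 13.5% of all genes did. For KD against WT under RI 14 of 49 rose without WT ICI 2 and WT RI 3, where 15.7% of all genes passed in either direction. Those libraries were picked for their high muscle levels, so the 14 support no difference. With only the groups compared 3 of 48 fell, where 29.9% of all genes passed in either direction.

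Markers of other tissues were high in some of the same libraries and in others. Des, the intermediate filament of all muscle types, stood at 132 CPM in WT ICI 2 and 54.7 CPM in WT RI 3, but Acta2 and Myh11 of smooth muscle stayed at 4.25 to 11.2 CPM and 0.78 to 2.83 CPM. The heart gene Myh6 had at most 1 count. The 8 heart markers summed to 7.66 CPM in WT ICI 2, 5.09 CPM in WT RI 3 and 2.83 to 5.30 CPM elsewhere. Of these, Myl4, Actc1 and Tnnt2 were highest in WT ICI 2, at 3.07, 1.40 and 0.68 CPM. No other gene of that list was highest there, and Nppb was lowest there, at 0.28 CPM. Summed tendon markers (5 genes, 5 above 0) reached 21.9 CPM in WT ICI 2, 18.2 CPM of it from Thbs4, a matrix protein that muscle also makes, and 0.95 to 4.00 CPM elsewhere. Summed adipocyte markers were 253 CPM in WT RI 3 and 20.9 CPM in WT ICI 2. They were 331 CPM in KD ICI 1, of which Fabp4, a lipid carrier also made by other cell types, gave 327 CPM. Without Fabp4 the other 6 markers summed to 153 CPM in WT RI 3, each of them highest there, to 6.02 CPM in WT ICI 2, to 4.15 CPM in KD ICI 1 and to at most 18.5 CPM in the remaining libraries. Adipoq, the fat cell hormone adiponectin, stood at 11.3 CPM in WT RI 3 and at most 1.14 CPM elsewhere. Summed erythroid markers, those of red blood cells, were 769 CPM in WT ICI 2 and 56.5 CPM in WT RI 3, and 2194 CPM in KD ICI 1. Summed keratinocyte markers were 0 CPM in WT ICI 2, 0.14 CPM in WT RI 3 and 9.13 CPM in WT RI 2. The part of fat, blood, tendon or skin in these libraries was not tested.

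**Figure D5:**
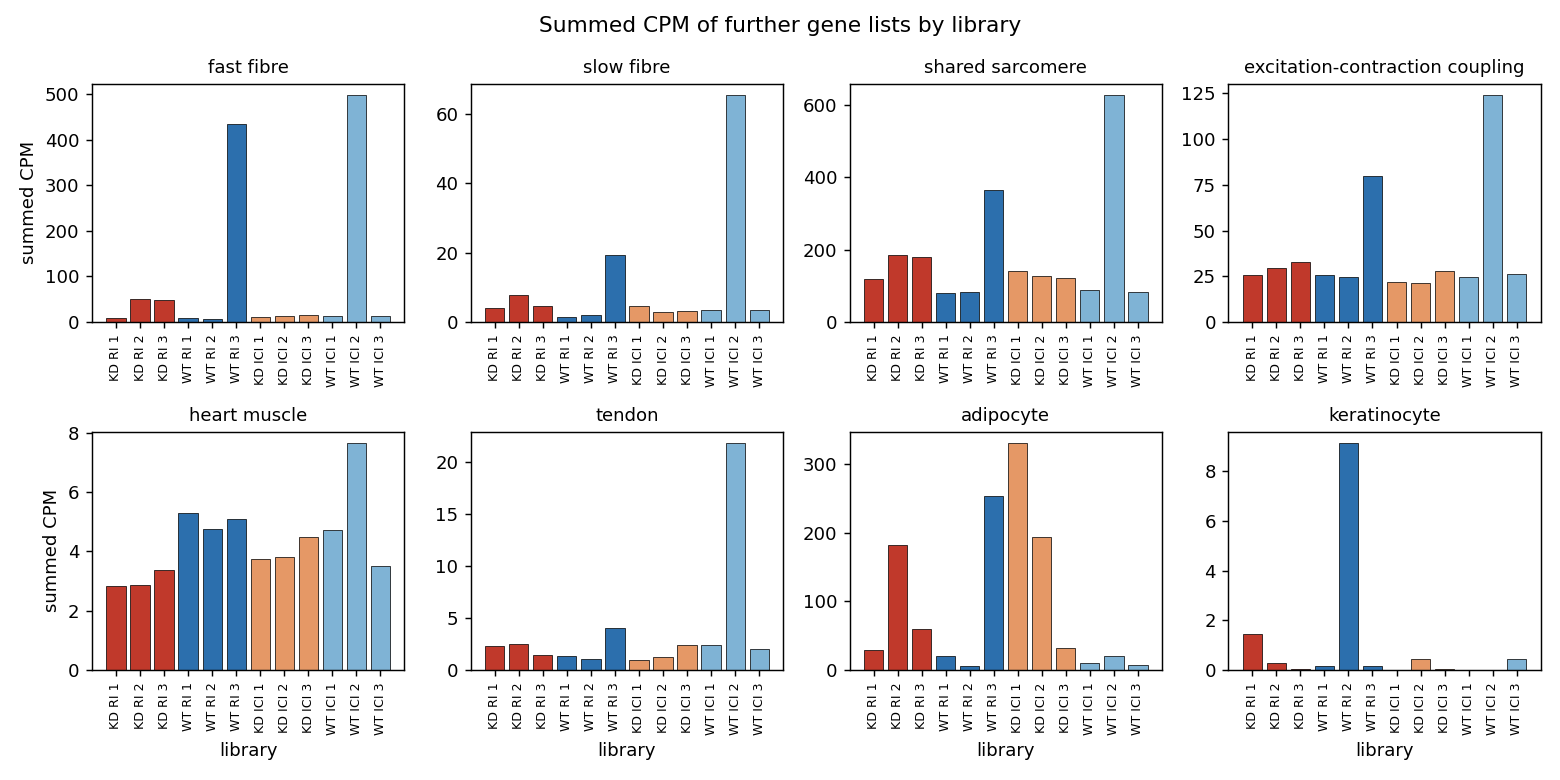
Summed CPM of 8 gene lists (panels, each with its own axis from 0) in the 12 libraries with counts, coloured by group. WT ICI 2 and WT RI 3 stand out in the fast, slow, sarcomere and coupling panels, WT RI 2 leads the keratinocyte panel, and KD ICI 1 leads the adipocyte panel through Fabp4, with 327 of its 331 CPM.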

How the data were processed

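The RNA libraries number 15, all from tumours. The authors deposited raw counts and FPKM of 53465 genes for 12 libraries, and FPKM only, in a table of 34745 entries, for KD RT, as the file headers show. The counts are whole numbers. HISAT2, GRCm38 and mm10 stand in the submitters' processing notes, while no source used here states the counting program, gene models or strandedness. Columns were matched to samples by their descriptions. Counts were scaled by TMM and filtered by filterByExpr (minimum count 10, minimum total count 15), which left 16617 genes. The quasi-likelihood fit of edgeR 4.0.16 (R 4.3.3), with robust shrinkage, gave each of 4 groups a mean over 12 libraries. It was tested on simulated data, and each comparison was adjusted at 0.05 over all genes. The standard error is the fold change divided by the square root of F. Correlations use log2 CPM with a prior count of 2. DESeq2 1.42.0, other scalings, filters, blocks and left-out libraries were alternatives. By the naming rule the text gives all 10 genes, the 8 most alike genes and, in each further list, genes of highest FPKM or past the threshold. A few others were named after their values were seen. The members and lists were chosen with earlier results of these data known.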

Additional observations from a re-analysis of the deposited data

How the results depend on the processing

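The count of 0 members past the threshold was kept in all 5 comparisons with other scalings, with no filter, with naming as a term and with KD ICI 1 and KD ICI 2 summed. The replicate number as a block also gave 0 in each. DESeq2 called 0, but it gave an adjusted p to 1 of the 10 genes in each comparison and could call no other. Without the SG793 libraries, which left 1 library in KD RI, the members' median was -6.27 under ICI and -1.23 under RI. Same-numbered libraries were not taken as pairs, since r between their deviations averaged 0.0064 over 18 pairs and ranged from -0.344 to 0.301. For KD against WT under ICI the count was 1 (Myh1) with no robust shrinkage, with only the groups compared or without WT ICI 2 and WT RI 3. In those fits 31.1%, 19.7% and 21.3% of all genes passed. The count ran from 0 to 2 when 1 library was left out, where 20.9% to 45.7% of all genes passed. In JIAN libraries only, with 1 library in KD ICI and 1 in WT ICI, Tnnt1 changed by -4.50. Scaling by library size alone moved the median of all genes to -0.21 under ICI and to 0.12 for the difference of the RI effects, and the count of 0 stood. Leaving out 1 library gave 0 in the other 4 comparisons. Without WT ICI 2 and WT RI 3 the count was 4 under RI, where 15.7% of all genes passed. That choice of libraries used their high muscle levels, so counts without both support no difference. Acta1 under RI turned to 6.57 without those libraries, and it ran from -2.58 to 6.58 with 1 library left out. Acta1 for RI against ICI in WT ran from -8.77 to 3.86, and Tnnt1 under ICI from -1.88 to 0.30, or 0.31 without both libraries. Genes of the 6 further lists called under ICI ranged from 1 to 13, against 3 of 51. The 13 were of 51 without WT RI 3, where 29.4% of all genes passed, and DESeq2 called 12, where it called 28.7% of all genes. Under RI they ranged from 0 to 14, against 0 of 51. The 14 were of 49 without WT ICI 2 and WT RI 3, where 15.7% of all genes passed. They support no difference either, since the choice of libraries used the outcome. Myh4 shares by FPKM were 84.1% in WT RI 3 and 65.0% in WT ICI 2, against 82.6% and 62.3% by counts. Fits in which 1 library is left in a group assume that it varies like the others. One count was 0.040 to 0.068 CPM, which limits Myh7, Mb and Tnnt1.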

Other observations

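Tnnc2, the fast skeletal troponin C, went against the other fast genes in the count table and was named after its values were seen. It had 2 counts in WT ICI 2, 1 in KD RI 3 and 0 in the other 10 libraries, although Tnni2, its partner in the same complex, had 1845 counts in WT ICI 2 and 1005 in WT RI 3. In the KD RT table Tnnc2 was at 1.51, 17.5 and 0.394 FPKM in KD RT 1, 4 and 5, beside 0.574, 6.88 and 0.146 FPKM for Tnni2. Ube2c, a mitotic gene on the other strand, overlaps Tnnc2 in GENCODE M21 and held 787 to 3557 counts in the 12 libraries. How each table treats reads in such overlaps was not tested.

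H19, an imprinted noncoding RNA, was named after its values were seen. It followed the 8 muscle genes tested with r of 0.956 on log2 CPM over 12 libraries and 0.945 without WT ICI 2 and WT RI 3, at a mean of 9.19 CPM.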
